A study of Rattus norvegicus with 4 samples.

Results

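Solute carriers are membrane proteins that move amino acids, sugars, ions, metals, drugs and metabolites into and out of cells and organelles. Hepatocytes carry many of them, since the liver takes up nutrients, bile acids and foreign compounds from blood and exchanges metabolites between cytosol and mitochondria. Most of them use ion gradients or exchange 1 substrate for another instead of splitting ATP. The genes described here are the rows of the deposited table whose symbol begins with Slc and a digit, or with Slco, and whose mean count over the 4 libraries was at least 10. Of 374 such rows in a table of 32545 genes, 97 met this rule. Another 274 lay below the mean count, 94 of them at 0 in every library, and the bile acid transporter Slc10a1, the fatty acid carrier Slc27a5 and the carnitine carrier Slc25a20 were set aside.

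Messenger RNA from rat liver was sequenced in 2 libraries of sleep restriction and 2 of forced activity. All animals were kept active by force, and those of the sleep restriction group were also restricted in sleep, chronically by the title of the study, so that forced activity alone served as the control. The labels used here give neither strain, sex or age nor the length of the restriction, and they do not say whether each library came from its own animal, so the p-values measure only the spread between these libraries. The totals were nearly equal, between 508203 and 520276 counts. Sleep restriction 2 stood apart, since 32544 of its 32545 values were whole numbers, against 19550 in sleep restriction 1, 19659 in forced activity 1 and 21691 in forced activity 2, and it had the fewest genes above 0. For several members whose result rests on this library, the log2 change without it is therefore also given.

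The members were chosen by their level, which used the mean over both groups and not the difference between them. The values just inside the limit were a mean count of 10.2 for Slc50a1 and 10.4 for Slc39a4, and those just outside were 9.72 for Slc35c1 and 9.47 for Slc35f6. Normalised read counts are given as counts per 1e6 counts (CPM) after scaling by TMM factors. They are not divided by transcript length, so levels are compared between libraries and not between genes. The 97 members together took 1.25% and 1.22% of all counts in the sleep restriction libraries, and 1.29% and 1.28% in the forced activity libraries.

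The liver origin of the libraries was checked by marker genes. All 7 hepatocyte markers were present and summed to between 186067 and 197712 CPM in each library, whereas the kidney markers Umod, Nphs1 and Aqp2, looked at because kidney shares many transporters with liver, were at 0 in all libraries. The sum of 7 sinusoidal endothelial markers was 365 and 194 CPM under sleep restriction and 129 and 379.7 CPM under forced activity. The 4 red cell markers summed to 1111 and 648 CPM under sleep restriction, against 818 and 1689 CPM under forced activity. In tissue RNA, fewer cells of a type and less RNA per cell cannot be told apart.

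The comparison asked whether transporter transcripts differ when sleep restriction is added to forced activity. No solute carrier passed the test. All 97 members passed the filter on low counts, and 0 reached an adjusted p under 0.05 in edgeR's quasi-likelihood test, against 1 of the 4986 genes tested (0.0201%). Every member had the same adjusted p, 0.999. At an unadjusted p under 0.05, 1 member was higher and 1 lower, against 2.83% and 1.36% of all genes tested, and at that level DESeq2 had 0 members and limma-voom 1. The replicate number as a block gave 5 higher and 1 lower at that level. For DESeq2, limma-voom and the block, the share of all genes at that level was not taken. Their counts are therefore not read as a result about the members.

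Most differences were small beside their error. The median log2 change of sleep restriction over forced activity was -0.045 over the members and 0.0031 over all genes tested. The quartiles of the members were -0.16 and 0.12, and those of all genes -0.17 and 0.20. An absolute log2 change under 0.5 was found for 90 of the 97 members, against 4492 of the 4986 genes tested. No member exceeded 1, that is, a 2-fold difference, against 36 of all genes tested. The 95% interval of the change reached a median of 0.57 to either side. For 80 members the whole interval as calculated lay between -1 and 1, a count not taken over all genes tested. For some low-count members the interval was narrower than the p-value implies, so this count may be too high. The interval of Slc25a44, 0.0038 to 1.24, left out 0 although its unadjusted p in edgeR was 0.05005. The widest interval was that of Slc25a47, at -1.0 to 1.82. A positive change was seen in 39 members, or 40.2%, and a negative one in 58, while 52.4% of all genes tested had a positive one.

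**Figure D1:**
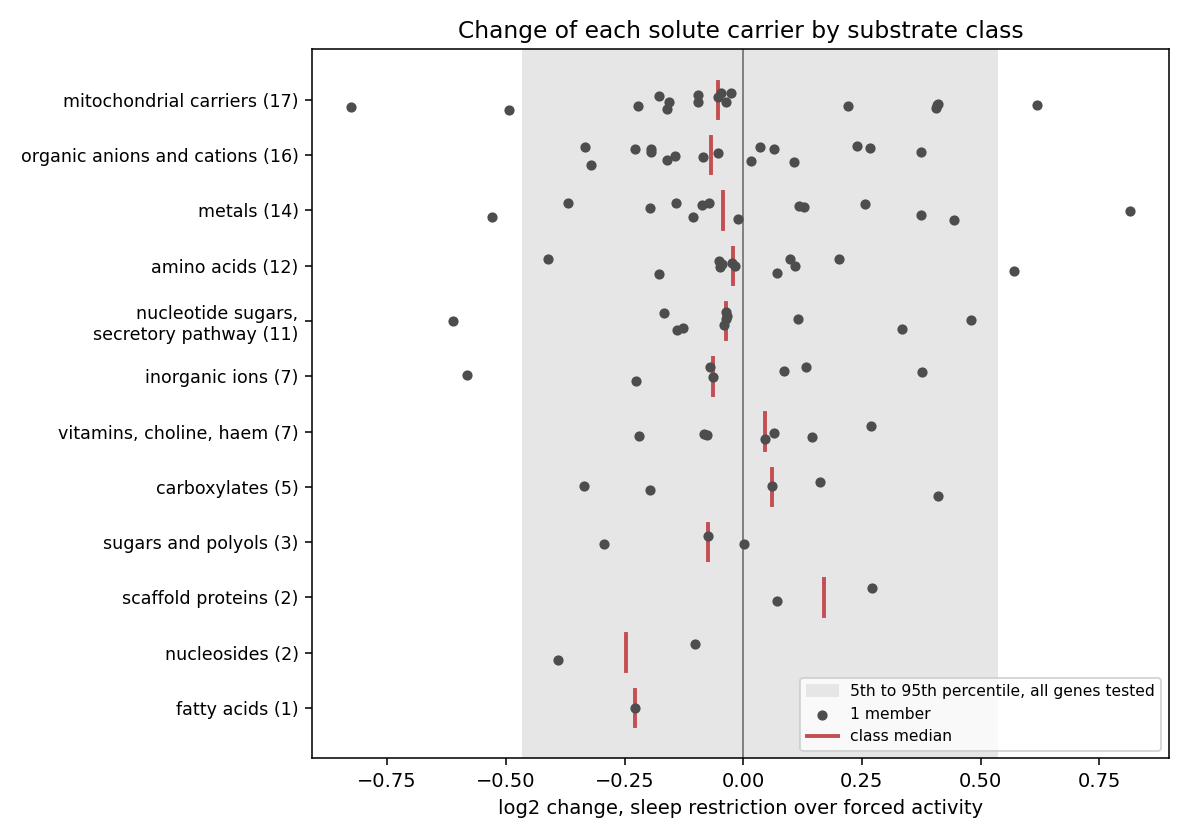
Log2 change of sleep restriction over forced activity (horizontal axis) for each of the 97 solute carriers, grouped by substrate class with the number of members in brackets. Each point is 1 gene, red lines are class medians, and the grey band runs from -0.46 to 0.53, the 5th and 95th percentiles of all 4986 genes tested. Most points of every class lie inside the band, with Slc30a1 farthest to the right at 0.81 and Slc25a25 farthest to the left at -0.83.

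The libraries of the 2 groups separated for few members. Both sleep restriction libraries lay above both forced activity libraries in 13 members (13.4%) and below them in 10 (10.3%), against 17.2% and 15.3% of all genes tested. The replicate 1 libraries had more genes above 0 than the replicate 2 libraries. There were 14105 in sleep restriction 1 and 14008 in forced activity 1, against 10952 in sleep restriction 2 and 11943 in forced activity 2. Sleep restriction 2 holds whole numbers while the others may be averages over draws, so its number may not be comparable. The difference between the groups was also taken within each replicate number. It had the same sign in both pairs for 58 members (59.8%), against 56.1% of all genes tested. The median difference of the members was -0.068 on the log2 scale in the replicate 1 pair and 0.033 in the replicate 2 pair.

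Metal transporters held the 2 members with the smallest p. Slc30a1, the exporter that moves zinc out of the cell across the plasma membrane, measured 50.4 and 54.3 CPM under sleep restriction, against 38.8 and 18.8 CPM under forced activity. Both sleep restriction libraries were higher, and forced activity 2 was the lowest of the 4. Its log2 change was 0.81 (SE 0.31), with a 95% interval of 0.14 to 1.49 and an unadjusted p of 0.0215 in edgeR's quasi-likelihood test, which became 0.999 after adjustment over all genes. The difference was 0.35 between the replicate 1 libraries and 1.36 between the replicate 2 libraries, and with 1 library left out the log2 change ran from 0.41 to 1.33. The gene lies on chromosome 13 from 110677810 to 110681683 in rn6.

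Slc30a1 is known from mouse as a target of the metal-responsive factor MTF-1, which binds metal response elements, so its promoter is shown here as the 250 bases before the RefSeq start in GRCr8, on chr13:106021769-106022018, plus strand. The core was searched as TGCACNC or TGCGCNC on both strands, and capitals mark its matches, which here lie on the opposite strand at -91 to -85 and -18 to -12 relative to the start.
Slc30a1: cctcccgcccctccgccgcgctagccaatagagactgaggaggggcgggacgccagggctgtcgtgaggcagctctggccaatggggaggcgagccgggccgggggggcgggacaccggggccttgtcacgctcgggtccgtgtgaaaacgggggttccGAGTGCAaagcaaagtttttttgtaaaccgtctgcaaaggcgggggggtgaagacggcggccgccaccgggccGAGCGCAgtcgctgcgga
Of the promoters of this length of 27457 genes, 21.2% hold the core, as do 22 of the 77 members matched by symbol, so a match alone is common. Metallothioneins, small metal-binding proteins whose genes answer to the same factor, were set beside it after their values were seen. Mt2A measured 201 and 44.6 CPM under sleep restriction, against 141 and 87.5 CPM under forced activity, a log2 change of 0.11 (SE 0.67). The rows listed as Mt1 on chromosomes 19 and 17 had log2 changes of -0.30 (SE 0.86) and 0.073 (SE 0.56). Under sleep restriction, replicate 1 lay above replicate 2 by 2.08 on the log2 scale for Mt2A. For the Mt1 rows it did so by 2.45 (chromosome 19) and 1.83 (chromosome 17). Whether the values of Slc30a1 or of the metallothioneins follow metal or the factor was not tested. Mtf1, the gene of the factor, was listed at 0 in all libraries.

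Slc39a7, which releases zinc from the endoplasmic reticulum and Golgi into the cytosol, was lower in both sleep restriction libraries. It measured 96.7 and 75.7 CPM under sleep restriction, against 146 and 108 CPM under forced activity. Its log2 change was -0.53 (SE 0.24) with a 95% interval of -1.05 to -0.0051 and an unadjusted p of 0.0481 in edgeR, again 0.999 after adjustment. The pairs were close to each other, with -0.57 between the replicate 1 libraries and -0.49 between the replicate 2 libraries. Slc39a8, an importer of zinc and manganese, measured 64.9 and 50.4 CPM under sleep restriction, against 71 and 81.5 CPM under forced activity. Its log2 change of -0.37 (SE 0.24) was larger in the replicate 2 pair (-0.65) than in the replicate 1 pair (-0.12). With 1 library left out, the log2 change of Slc39a8 ran from -0.57 to -0.21.

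Among the other Slc30 genes the differences went both ways. Slc30a4, a zinc transporter of intracellular vesicles, measured 32.4 and 44.6 CPM under sleep restriction, against 30.1 and 28.6 CPM under forced activity. Slc30a9, whose substrate is less settled, measured 24.2 and 42.7 CPM under sleep restriction, against 22.8 and 23.6 CPM under forced activity. In both genes sleep restriction 2 stood apart and sleep restriction 1 was close to the forced activity libraries. Without sleep restriction 2, the log2 change of Slc30a4 was 0.16 and the log2 change of Slc30a9 was -0.0025, against 0.38 and 0.44 with all libraries. Slc30a5, a zinc transporter of the secretory pathway named after its values were seen, had a log2 change of -0.14 (SE 0.24). Slc30a10, the manganese exporter of the liver, measured 137 and 142 CPM under sleep restriction, against 133 and 167 CPM under forced activity, with overlapping groups. The copper importer Slc31a1 measured 145 and 132 CPM under sleep restriction, against 130.0 and 102 CPM under forced activity, higher in both sleep restriction libraries by a log2 change of 0.26 (SE 0.22). The importers Slc39a14 (zinc, iron and manganese) and Slc39a4 (zinc) had log2 changes of -0.087 and 0.12, and the magnesium transporter Slc41a2 one of 0.13. Over the class, 6 of the 14 had a log2 change above 0 and 8 below it (median -0.042), and none was called.

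**Figure D2:**
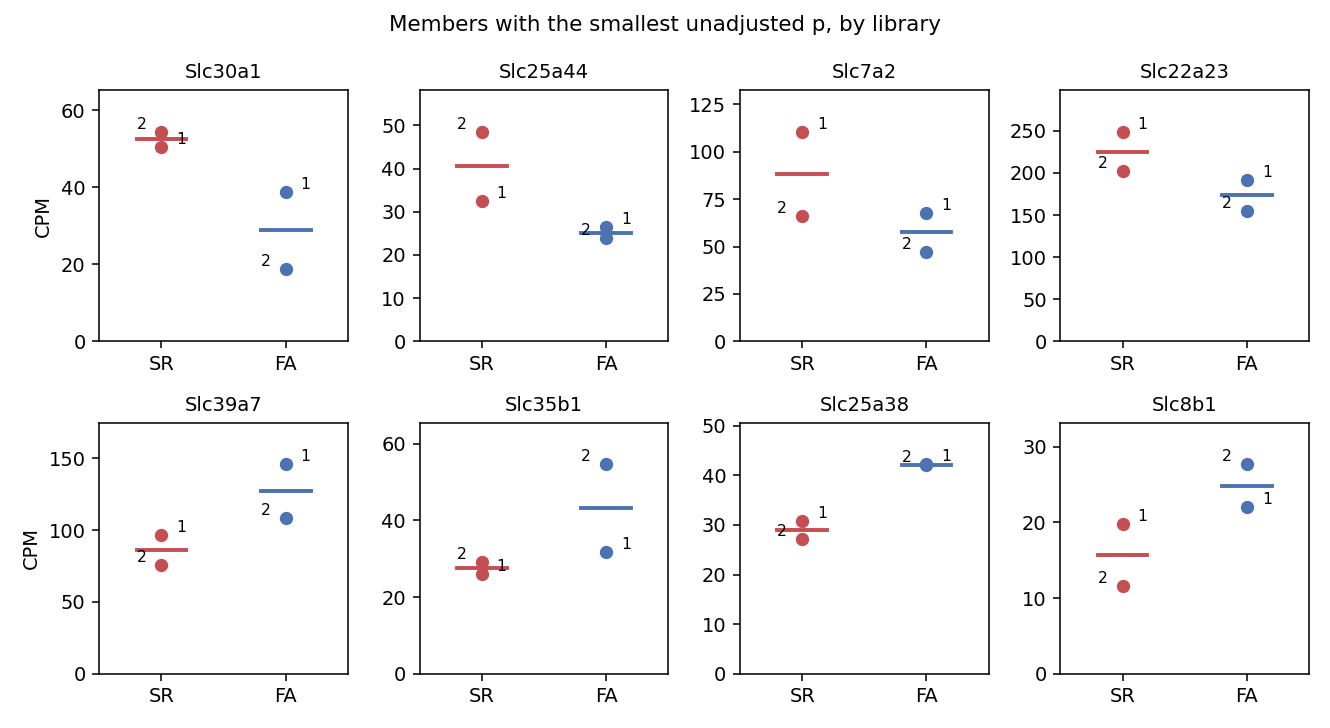
CPM in each library (points, marked 1 or 2 by replicate number) under sleep restriction (SR, left) and forced activity (FA, right) for the 4 members with the smallest unadjusted p in each direction. Bars are group means, and each vertical axis starts at 0. The groups do not overlap except for Slc7a2, where sleep restriction 2 at 66.0 CPM lies just under forced activity 1 at 67.6 CPM.

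Most carriers of the Slc25 family exchange metabolites across the inner mitochondrial membrane, and the family formed the largest class. Here 5 of the 17 had a log2 change above 0 and 12 below it (median -0.054), and none was called. Slc25a44, a carrier of branched-chain amino acids, measured 32.6 and 48.5 CPM under sleep restriction, against 26.4 and 24 CPM under forced activity. Its log2 change was 0.62 (SE 0.28), with an unadjusted p of 0.05005 in edgeR, and sleep restriction 2 was the highest library. Slc25a46, an outer membrane member of the family with a part in mitochondrial fission and fusion, had the same order of libraries, with 29.9 and 42.7 CPM under sleep restriction, against 26.8 and 25.4 CPM under forced activity. Without that library the log2 change of Slc25a44 was 0.34 and the log2 change of Slc25a46 was 0.13, against 0.41 for Slc25a46 with all libraries. Slc25a38, which brings glycine into mitochondria for haem synthesis, was lower in both sleep restriction libraries, with 30.8 and 27.2 CPM under sleep restriction, against 42.2 and 42 CPM under forced activity. Its forced activity libraries were almost equal, and its log2 change of -0.49 (SE 0.25) had an unadjusted p of 0.105 in edgeR.

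The carriers that serve the urea cycle and energy exchange had overlapping groups. Slc25a15, which exchanges ornithine and citrulline, averaged 502 ± 55.2 CPM under sleep restriction and 522 ± 5.31 CPM under forced activity (SD, n = 2 each), and its 95% interval ran from -0.49 to 0.38 on the log2 scale. Slc25a5, an ADP/ATP exchanger, averaged 222 ± 39.1 CPM under sleep restriction and 238 ± 18.2 CPM under forced activity (SD, n = 2 each). The phosphate carrier Slc25a3 and the citrate carrier Slc25a1, chosen with their values known, differed by -0.046 and -0.025 on the log2 scale.

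Slc25a25, a calcium-regulated carrier that exchanges ATP-magnesium for phosphate, varied most. It measured 77 and 36.9 CPM under sleep restriction, against 54.5 and 153 CPM under forced activity. Forced activity 2 was the highest library and sleep restriction 2 the lowest, with both replicate 1 libraries between them, so the groups overlapped. The difference was 0.47 between the replicate 1 libraries and -1.94 between the replicate 2 libraries, opposite in sign, and the gap between the pairs, 2.41 on the log2 scale, was the largest among the members. Without forced activity 2 the log2 change was 0.059, and with all libraries it was -0.83 (SE 0.50). The red cell marker sum was also highest in forced activity 2 (1689 CPM), and its part in this value was not tested.

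The Slc25a25 promoter is shown because it is 1 of the 2 among the 77 matched members, with that of the folate and haem carrier Slc46a1, to hold a full cAMP response element, the site of the hormone-responsive factor CREB. These are the 250 bases before the RefSeq start in GRCr8, on chr3:36116582-36116831, minus strand. Capitals mark the element TGACGTCA, which reads the same on both strands, at -158 to -151.
Slc25a25: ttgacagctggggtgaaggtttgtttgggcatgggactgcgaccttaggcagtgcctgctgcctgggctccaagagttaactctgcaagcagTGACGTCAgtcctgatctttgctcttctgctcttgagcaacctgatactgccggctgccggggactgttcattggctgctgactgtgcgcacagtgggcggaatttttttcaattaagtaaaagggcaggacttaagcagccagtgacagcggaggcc
The element occurs in 1.68% of all promoters of this length. Slc46a1, with the same element, measured 68.4 and 66 CPM under sleep restriction, against 82.1 and 59.4 CPM under forced activity. Whether the element bears on either gene's values was not tested.

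**Figure D3:**
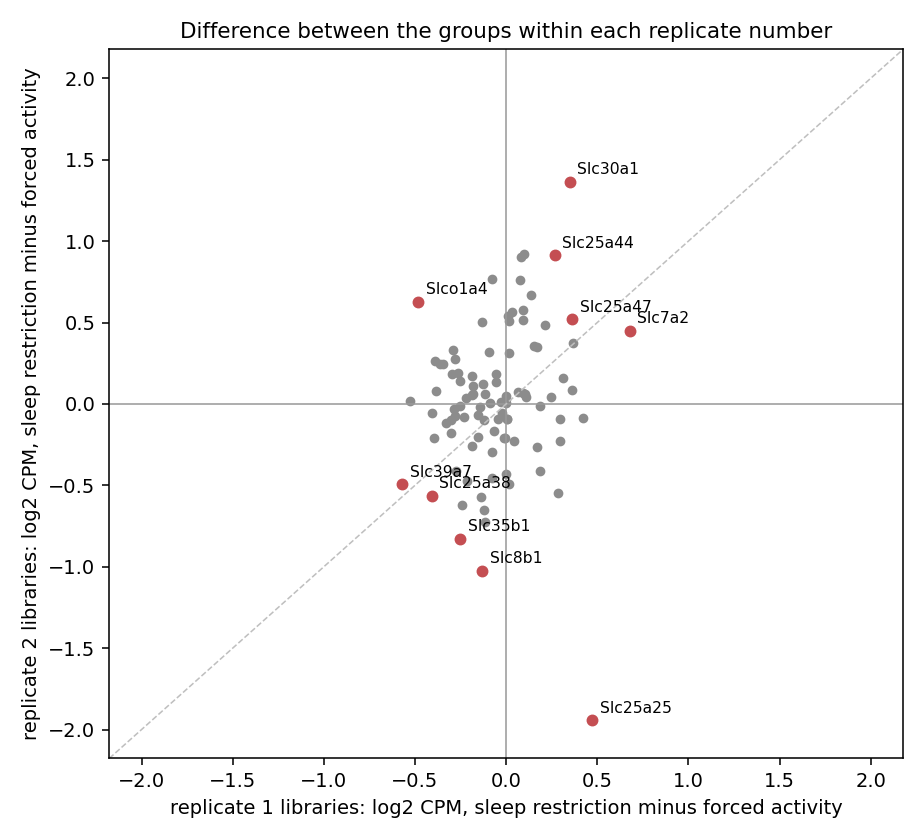
Difference of log2 CPM, sleep restriction minus forced activity, between the replicate 1 libraries (horizontal axis) and between the replicate 2 libraries (vertical axis), 1 point per solute carrier with selected members in red. Points on the dashed line would have equal differences in both pairs. Slc39a7 and Slc25a38 lie near it, while Slc25a25 lies at 0.47 and -1.94.

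Some members differed more between the 2 libraries of a group than between groups. Slc25a47, a mitochondrial carrier made mainly in liver, measured 491 and 206 CPM under sleep restriction, against 381 and 142 CPM under forced activity. In both groups replicate 1 was above replicate 2, by 1.24 on the log2 scale under sleep restriction and 1.40 under forced activity, against a log2 change between groups of 0.41 (SE 0.57). Slc22a18, an organic cation transporter of the Slc22 family, and Slc25a13, the aspartate-glutamate carrier, both named after their values were seen, ran the same way. Slc22a18 measured 152 and 87.3 CPM under sleep restriction, against 165 and 83.4 CPM under forced activity, and Slc25a13 measured 89.6 and 66 CPM under sleep restriction, against 83.4 and 33.1 CPM under forced activity. Replicate 1 was higher than replicate 2 in both groups for 41 of the 97 members and lower in both for 25. The same counts were not taken over all genes tested, so these are not read as a trait of the members. Replicate number goes with the number of genes above 0 in these libraries, with the limit given above for sleep restriction 2. The part of replicate number in these values was not tested.

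**Figure D4:**
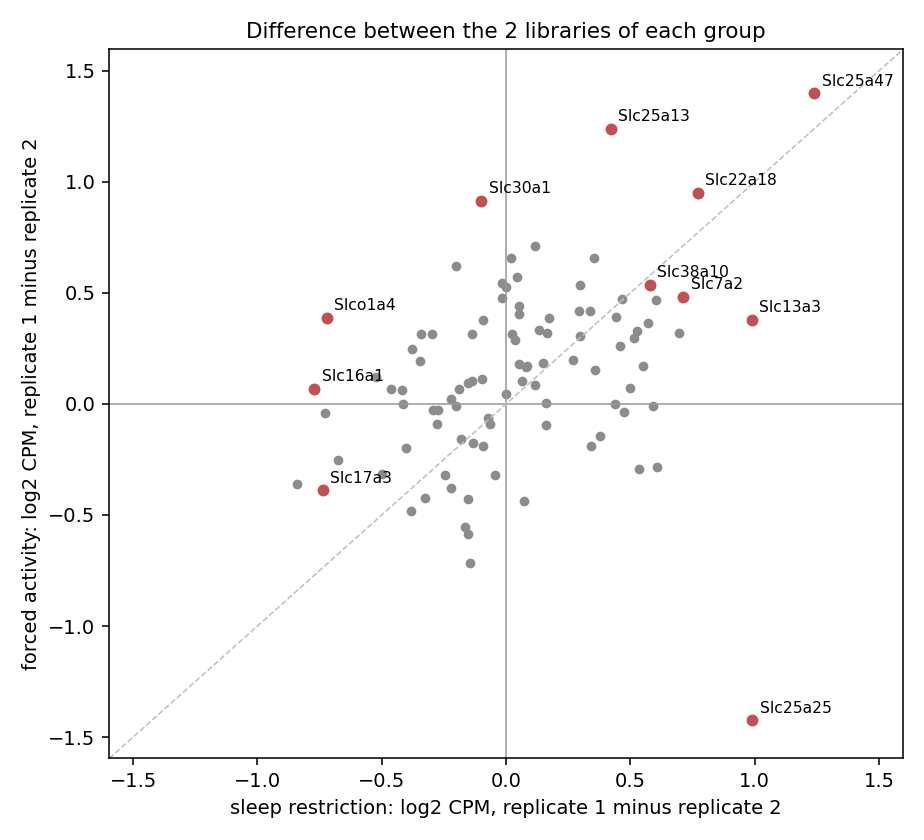
Difference of log2 CPM, replicate 1 minus replicate 2, under sleep restriction (horizontal axis) and under forced activity (vertical axis), 1 point per solute carrier with selected members in red. Slc25a47 lies at the upper right, high in replicate 1 of both groups, and Slc25a25 at the lower right, high in sleep restriction 1 and forced activity 2.

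Transporters of organic anions, organic cations and bile acids set much of the liver's uptake of drugs and bile acids from blood. Here 7 of the 16 had a log2 change above 0 and 9 below it (median -0.069), and none was called. Slco1b2, the main rat liver uptake transporter of the organic anion transporting polypeptide family, measured 563 and 619 CPM under sleep restriction, against 585 and 544 CPM under forced activity. The groups overlapped, and the log2 change was 0.064 (SE 0.19), with a 95% interval of -0.36 to 0.49. Slco1a1, which takes up bile acids and steroid conjugates, measured 177 and 178 CPM under sleep restriction, against 175 and 124 CPM under forced activity, where 3 libraries were close and forced activity 2 was lower.

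Slco1a4, a near relative with similar substrates, was uneven within both groups. It measured 116 and 194 CPM under sleep restriction, against 164 and 124 CPM under forced activity, and the difference was -0.48 between the replicate 1 libraries and 0.63 between the replicate 2 libraries. Slco1b2, Slco1a4 and Slco1a1 lie beside each other on chromosome 4 from 175814118 to 176231344 in rn6, and close copies of this kind may share reads, so the split of reads among them is uncertain. Slco2b1, a broad organic anion transporter, measured 199 and 139.7 CPM under sleep restriction, against 199 and 189.6 CPM under forced activity, where sleep restriction 2 was the low library. Without sleep restriction 2, the log2 change of Slco2b1 was 0.031 and the log2 change of Slco1a4 was -0.30, against -0.19 and 0.11 with all libraries.

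Slco2a1, the prostaglandin transporter, which is also made by endothelial cells, averaged 348 ± 28.5 CPM under sleep restriction and 389.9 ± 61.7 CPM under forced activity (SD, n = 2 each). The part of endothelial content in these values was not tested.

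In the Slc22 family, Slc22a23, a member with no settled substrate, was higher in both sleep restriction libraries. It measured 249 and 202 CPM under sleep restriction, against 192 and 155 CPM under forced activity, and the difference was nearly the same in both pairs, 0.37 between the replicate 1 libraries and 0.37 between the replicate 2 libraries. Its log2 change of 0.37 (SE 0.22) had an unadjusted p of 0.115 in edgeR and a 95% interval of -0.11 to 0.85. Slc22a7, the liver's organic anion transporter 2, measured 105 and 67.9 CPM under sleep restriction, against 128 and 91.6 CPM under forced activity, a log2 change of -0.32 (SE 0.26) with overlapping groups. Slc22a8, organic anion transporter 3, had a log2 change of 0.017 (SE 0.20), its libraries of equal replicate number being almost identical at 349 and 314 CPM under sleep restriction, against 349 and 307 CPM under forced activity.

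Slc17a2, a phosphate and organic anion transporter, was lower in both sleep restriction libraries, with 119.8 and 107 CPM under sleep restriction, against 139.7 and 149.5 CPM under forced activity and a log2 change of -0.33 (SE 0.21). Its neighbours Slc17a3 and Slc17a4 on chromosome 17, named after their values were seen, differed by -0.19 and 0.036 on the log2 scale with overlapping groups.

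Amino acid transporters included both abundant sodium-coupled carriers of hepatocytes, of which Slc38a3 takes up glutamine and Slc38a4 small neutral amino acids. Slc38a3 measured 862 and 923 CPM under sleep restriction, against 1049 and 971 CPM under forced activity, lower in both sleep restriction libraries with a log2 change of -0.18 (SE 0.19). Slc38a4 averaged 983 ± 45 CPM under sleep restriction and 1015 ± 94.9 CPM under forced activity (SD, n = 2 each), with overlapping groups. Both 95% intervals were narrow for these data, -0.59 to 0.24 and -0.47 to 0.37.

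Slc7a2, the arginine and lysine transporter of the liver, was higher in each pair but not across pairs. It measured 111 and 66 CPM under sleep restriction, against 67.6 and 47.4 CPM under forced activity, and the difference was 0.68 between the replicate 1 libraries and 0.45 between the replicate 2 libraries. The log2 change was 0.57 (SE 0.29), with an unadjusted p of 0.0725 in edgeR and a range of 0.16 to 0.88 with 1 library left out. Slc6a12, the betaine transporter, measured 27.3 and 17.5 CPM under sleep restriction, against 33.1 and 29 CPM under forced activity. It was lower in both sleep restriction libraries with a log2 change of -0.41 (SE 0.29). With 1 library left out, the log2 change of Slc6a12 ran from -0.71 to -0.17. The creatine transporter Slc16a12 averaged 129 ± 1.02 CPM under sleep restriction and 132 ± 35.9 CPM under forced activity (SD, n = 2 each). Over the class, 5 of the 12 had a log2 change above 0 and 7 below it (median -0.021).

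Sugar and carboxylate transporters had overlapping groups, except for Slc50a1, which was lower in both sleep restriction libraries. Slc2a2, the glucose transporter GLUT2 that lets glucose cross the hepatocyte membrane both ways, averaged 477 ± 36.3 CPM under sleep restriction and 477 ± 22.1 CPM under forced activity (SD, n = 2 each), the log2 change nearest to 0 of all members and of either sign depending on the scaling, with a 95% interval of -0.43 to 0.43. Slc37a4, which carries glucose 6-phosphate into the endoplasmic reticulum for glucose release, averaged 239 ± 2.64 CPM under sleep restriction and 246 ± 38.4 CPM under forced activity (SD, n = 2 each), an interval of -0.50 to 0.42 on the log2 scale. The urate and sugar transporter Slc2a9 and the sugar transporter Slc50a1 had log2 changes of -0.075 and -0.29. Slc16a1, the lactate and ketone body transporter MCT1, measured 42.7 and 75.7 CPM under sleep restriction, against 45.2 and 42.9 CPM under forced activity, where only sleep restriction 2 was high. The dicarboxylate transporter Slc13a3 was low in the same library, with 69.2 and 33 CPM under sleep restriction, against 75.3 and 57 CPM under forced activity, and the sulfate transporter Slc13a4 had a log2 change of 0.16. Without sleep restriction 2, the log2 change of Slc16a1 was -0.033 and the log2 change of Slc13a3 was 0.073, against 0.41 and -0.34 with all libraries.

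Transporters of the endoplasmic reticulum and Golgi supply nucleotide sugars for glycosylation. Slc35b1, which exchanges ATP and ADP across the endoplasmic reticulum membrane, was lower in both sleep restriction libraries. It measured 26 and 29.1 CPM under sleep restriction, against 31.7 and 54.6 CPM under forced activity, where forced activity 2 stood apart, and its log2 change of -0.61 (SE 0.30) had an unadjusted p of 0.0630 in edgeR. The difference was -0.25 between the replicate 1 libraries and -0.83 between the replicate 2 libraries. Slc35a3, the Golgi carrier of UDP-N-acetylglucosamine, was higher in both, with 24.8 and 29.1 CPM under sleep restriction, against 23.2 and 13.7 CPM under forced activity and a log2 change of 0.48 (SE 0.32). With 1 library left out, the log2 change ran from -0.89 to -0.23 for Slc35b1 and from 0.14 to 0.88 for Slc35a3. The acetyl-CoA carrier Slc33a1 and the nucleotide sugar carrier Slc35d1 had log2 changes of -0.13 and -0.036. Over the class, 3 of the 11 had a log2 change above 0 and 8 below it (median -0.036).

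Fatty acids, ions, nucleosides and vitamins made up the rest. Slc27a2, which takes up fatty acids and activates very long chain ones, measured 970.1 and 1152 CPM under sleep restriction, against 1103 and 1380.1 CPM under forced activity, with overlapping groups and a log2 change of -0.23 (SE 0.20). Slc8b1, the sodium-calcium exchanger of mitochondria, measured 19.8 and 11.6 CPM under sleep restriction, against 22 and 27.7 CPM under forced activity. It was lower in both sleep restriction libraries with a log2 change of -0.58 (SE 0.33), and only 6 counts lay behind the lowest value. With 1 library left out, the log2 change of Slc8b1 ran from -0.91 to -0.32. The sulfate transporter Slc26a1, the phosphate transporter Slc20a2 and the bicarbonate exchanger Slc4a2 had log2 changes of 0.086, -0.23 and -0.064.

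The concentrative nucleoside transporter Slc28a2 measured 31 and 34.9 CPM under sleep restriction, against 34.5 and 53.7 CPM under forced activity, with forced activity 2 the highest, and the equilibrative Slc29a1 had a log2 change of -0.10. The log2 change of Slc28a2 was -0.39, and with 1 library left out it ran from -0.65 to -0.058. The thiamine transporter Slc19a2 had a log2 change of 0.27 and the vitamin C transporter Slc23a1 one of 0.064. Slc23a1 overlaps Paip2 in rn6, a gene with a mean count of 28.8, and Slc26a1 overlaps Idua with 10.7, so reads may be shared there. In all, the intervals of 21 members overlap another listed gene, and for 2 of them that gene had a mean count of at least 10. Slc9a3r1 and Slc9a3r2 carry transporter symbols but are scaffold proteins that hold transporters at the membrane, and they had log2 changes of 0.27 and 0.071.

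Genes of the same function without an Slc symbol were read beside the members, and those named were picked with their values known. Of 17 such carriers listed, 9 were tested and 0 passed in either direction, with a median log2 change of -0.077. The mitochondrial pyruvate carrier subunits Mpc1 and Mpc2 had log2 changes of 0.10 (SE 0.23) and -0.077 (SE 0.23). Of 15 partners and regulators listed, 13 were tested and 0 passed in either direction, with a median of 0.0033. Of those tested, 7 had a log2 change above 0 and 6 below it, from -0.59 to 0.69. Hnf4a was the highest and Nr1i3 the lowest, and Nr1i2 had a log2 change of -0.45 (SE 0.22). For Nr1i3 and Nr1i2, both sleep restriction libraries lay below both forced activity libraries. The list included Bsg, the chaperone of lactate transporters, at -0.029 (SE 0.23). Hnf4a, a liver transcription factor that drives many transporter genes, measured 638 and 788 CPM under sleep restriction, against 419 and 460.1 CPM under forced activity, a log2 change of 0.69 (SE 0.20) with an unadjusted p of 0.00577 in edgeR that did not pass the adjustment (0.999).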

How the data were processed

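The 4 rat liver libraries share 1 table of estimated counts, deposited by the authors with Ensembl gene IDs, symbols and rn6 intervals. Trizol was used for extraction and messenger RNA was then purified, per the labels' protocols. The submitters' processing notes name CASAVA, STAR 2.4.1d and rn6 without a role. For the program that counted reads, nothing is given in the sources used. The deposited values are multiples of 0.1 with nearly equal totals, and the table's name speaks of sense counts and an average of 10, so 3 of the libraries may be averages over draws to a common depth. In sleep restriction 2, 32544 of 32545 values are whole, so it appears not to have been averaged in this way.

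After rounding, the values were tested in edgeR 4.0.16 (R 4.3.3) with TMM factors, filterByExpr (minimum count 10), the quasi-likelihood test with robust estimation, and p-values adjusted by Benjamini-Hochberg across the 4986 genes kept (threshold 0.05). DESeq2 1.42.0 and limma 3.58.1 were alternatives. Log2 changes are shrunken with a prior count of 2, and SE and 95% intervals were calculated back from the F statistic and its degrees of freedom. For some members with low counts the p-value was larger than these imply, so their SE and intervals are too small. As the SE was taken from the shrunken change, SE and intervals shrink with it, most at low counts. Differences within a replicate number use log2 CPM with the same prior count. The 16 rows without a symbol held 0.0437% to 0.0563% of the counts. Members with means near 10 counts are the least precise.

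Members and lists were chosen with earlier results of these data known. Named members are the 10 with the smallest unadjusted p in each direction, the 3 with the largest mean count in each substrate class, the 2 nearest the limit on each side, the 5 with the largest gap between pairs, and the Slco family. Classes go by gene family, so some members sit with relatives of other substrates. Promoters come from RefSeq (GRCr8), and 77 of the 97 members matched by symbol. A few listed genes are not reported here by name.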

Additional observations from a re-analysis of the deposited data

How the results depend on the processing

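No solute carrier was called under any alternative run: RLE or upper-quartile factors, no gene filter, genes with at least 5 CPM in 2 libraries, DESeq2, limma-voom, no robust estimation, unrounded values, a replicate block, removal of the 10 most abundant genes, a member mean of at least 5 or 20, or each library left out. The smallest adjusted p of a member was 0.534, with the replicate block. Libraries of equal number deviated together with r = 0.206 over all genes tested and r = 0.321 over the 97 members. There are only 2 such pairs and no label ties them, so they were not treated as pairs. The block called 5 genes, all lower and none of them a member, against 1 without it, DESeq2 called 2, the fit without a gene filter 5, limma-voom and the fit without robust estimation 0 each, and leaving out a library 0 to 2. The median log2 change of the members ran from -0.080 to 0.039 with 1 library left out and was positive only without forced activity 1. The median over all genes moved by less than 0.1 under every scaling.

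With 1 library left out, the sign was kept for 37 of the 97 members and for 25 of the 54 named by the rule. It changed for 29 named members, whose log2 changes ran as follows: Slc13a3 -0.93 to 0.073, Slc13a4 -0.13 to 0.50, Slc16a1 -0.033 to 0.74, Slc16a12 -0.29 to 0.28, Slc22a8 -0.081 to 0.11, Slc23a1 -0.13 to 0.23, Slc25a15 -0.18 to 0.045, Slc25a25 -1.42 to 0.059, Slc25a47 -0.35 to 1.26, Slc25a5 -0.29 to 0.068, Slc29a1 -0.21 to 0.0076, Slc2a2 -0.082 to 0.067, Slc2a9 -0.25 to 0.071, Slc30a10 -0.25 to 0.059, Slc30a9 -0.0025 to 0.77, Slc33a1 -0.35 to 0.14, Slc35d1 -0.23 to 0.20, Slc37a4 -0.20 to 0.12, Slc38a4 -0.14 to 0.043, Slc39a4 -0.16 to 0.43, Slc41a2 -0.100 to 0.31, Slc46a1 -0.30 to 0.16, Slc4a2 -0.14 to 0.012, Slc9a3r1 -0.0011 to 0.59, Slc9a3r2 -0.15 to 0.25, Slco1a4 -0.30 to 0.41, Slco1b2 -0.012 to 0.12, Slco2a1 -0.32 to 0.013 and Slco2b1 -0.48 to 0.031. In the other alternatives 94 of 97 members kept their sign. Kept signs were not counted over all genes tested, so neither count is read as a trait of the members. The log2 change of Slc2a2 was -0.00776 with RLE factors, -0.018 with upper-quartile factors, -0.025 without a gene filter, -0.030 with the 5 CPM filter, -0.00785 with DESeq2 and -0.00326 unrounded. The log2 change of Slc22a8 was -0.000835 with upper-quartile factors, -0.011 without a gene filter and -0.016 with the 5 CPM filter, and the log2 change of Slc16a12 was 0.0010 with limma-voom. With 2 libraries a group, the 95% interval reached a median of 0.57 to either side.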
